A study of Homo sapiens with 4 samples.

Results

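Of 9401 peaks listed for the immunoprecipitation of SMD2 in HEK293T cells, 14 lay on mitochondrial DNA or in 1 stretch of chromosome 1 made of copies of it. They were chosen by position and gene name: 6 peaks on the mitochondrial chromosome, assigned by the authors to MT-RNR2, MT-ND2, MT-TY, MT-ATP6, MT-ND4 and MT-TE, and 8 peaks on chromosome 1 assigned to the transcribed processed pseudogene ENSG00000230021. That these genes held peaks is therefore how they were chosen, and not a result. SMD2 was immunoprecipitated for 3 libraries, and 1 further library is the input. Both groups come from HEK293T, a human embryonic kidney cell line, and are titled PAR-CLIP. In this method cells take up 4-thiouridine, and ultraviolet light of long wavelength joins it to bound protein. For the immunoprecipitation an anti-FLAG antibody pulls down the protein with RNA trimmed by RNase T1. Which of these steps the input library went through is not stated here. The labels name no genotype, tagged construct or treatment that would set the libraries apart otherwise.

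The list gives positions and annotation and no height, score, strand or value per library. Neither the spread between the 3 immunoprecipitated libraries nor the level in the input could therefore be set beside any peak, and the depth is unknown. Across the list the median peak width was 23 nt (interquartile range 19 to 31 nt).

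SMD2, encoded by SNRPD2, belongs to the ring of Sm proteins around the small nuclear RNAs of the spliceosome. Human mitochondrial genes have no introns and are not spliced. Their DNA is copied from both strands into long precursors, and tRNAs lying between the other genes are cut out, which frees the rRNAs and mRNAs on either side. Nuclear chromosomes also carry copies of mitochondrial DNA, some nearly identical to their source, so that a short read can fit both places. The list does not show where in the cell an RNA was, and a read from a mitochondrial RNA and a read from its nuclear copy cannot be told apart in it.

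RefSeq sequence was at hand for places in 2 such nuclear copies, each annotated as a microRNA hairpin, and both are printed to show what a copy of a mitochondrial RNA gene looks like. They run 5' to 3' in RefSeq (GRCh38.p14), and capitals mark the annotated mature microRNA. MIR12136 (chr1:632615-632685, minus strand, 71 nt) lies inside the chromosome 1 stretch described here, at the place of the mitochondrial tRNA gene TRNS1. MIR4485 (chr11:10508270-10508326, minus strand, 57 nt) lies within MTRNR2L8, a nuclear copy of the mitochondrial large ribosomal RNA gene.
MIR12136: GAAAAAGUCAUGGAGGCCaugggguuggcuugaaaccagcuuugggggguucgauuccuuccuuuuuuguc
MIR4485: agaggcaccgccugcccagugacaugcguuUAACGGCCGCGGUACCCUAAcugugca
No peak overlapped either hairpin. The nearest peak to MIR12136 began after 13 further bases, at 632699. The mitochondrial bases under the peaks themselves are not printed, since no genome sequence was used here.

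Most bases under the mitochondrial peaks lay on ribosomal RNA genes. The peak assigned to MT-RNR2 spanned positions 578 to 2594 of the mitochondrial genome, 2017 nt, the widest of the whole list. The name of the assigned gene covers only part of it: 954 of its bases lay on RNR1, the small ribosomal RNA gene, against 924 on RNR2, the large one. It covered RNR1 whole and 59.3% of the 1559 nt of RNR2, ending 635 nt before the end of that gene. It also took in the whole of TRNV, the valine tRNA between both rRNA genes, and 70 of the 71 nt of TRNF, the phenylalanine tRNA gene at its left edge. Both mitochondrial rRNA genes were thus overlapped, through 1 peak, against 20.7% of nuclear rRNA genes in RefSeq (6 of 29). MT-RNR2 was chosen for holding this peak and RNR1 shares it, so the count is a description and not a comparison. Gene length was not accounted for.

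tRNA genes lay under 4 of the 6 mitochondrial peaks. The peak assigned to MT-TY, at 5586 to 5915 (330 nt), held 4 whole tRNA genes, those for alanine, asparagine, cysteine and tyrosine (TRNA, TRNN, TRNC and TRNY). These genes are read from the strand opposite to ND2 and COX1 on either side, and the list does not say which strand the reads came from. The peak ran a further 12 nt into COX1, which codes for the catalytic subunit of cytochrome c oxidase, and left out the neighbouring tryptophan tRNA gene TRNW, which is read from the same strand as ND2.

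The peak assigned to MT-TE, at 14619 to 14794 (176 nt), covered the whole glutamate tRNA gene TRNE (69 nt). It reached 55 nt into ND6, a subunit of respiratory complex I, and 48 nt into CYTB, the cytochrome b of complex III. TRNE and ND6 are read from the strand opposite to CYTB, so bases of genes of both strands lay under this peak.

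The peak assigned to MT-ATP6, at 8296 to 8719 (424 nt), began in TRNK, the lysine tRNA gene, with 69 of its 70 nt. It covered ATP8 whole (207 nt) and the first 193 nt of the 681 nt of ATP6. ATP8 and ATP6 code for subunits of the ATP synthase and overlap each other on one mRNA. By length the peak thus lay more on ATP8 than on the gene it was assigned to.

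The other two mitochondrial peaks, the narrowest of the 6, each lay inside a single gene. The peak of MT-ND2 was at 5056 to 5173 (118 nt, 11.3% of ND2). The peak of MT-ND4 was at 11963 to 12056 (94 nt, 6.82% of ND4), 81 nt before the end of that gene. Both genes code for membrane subunits of complex I.

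**Figure D1:**
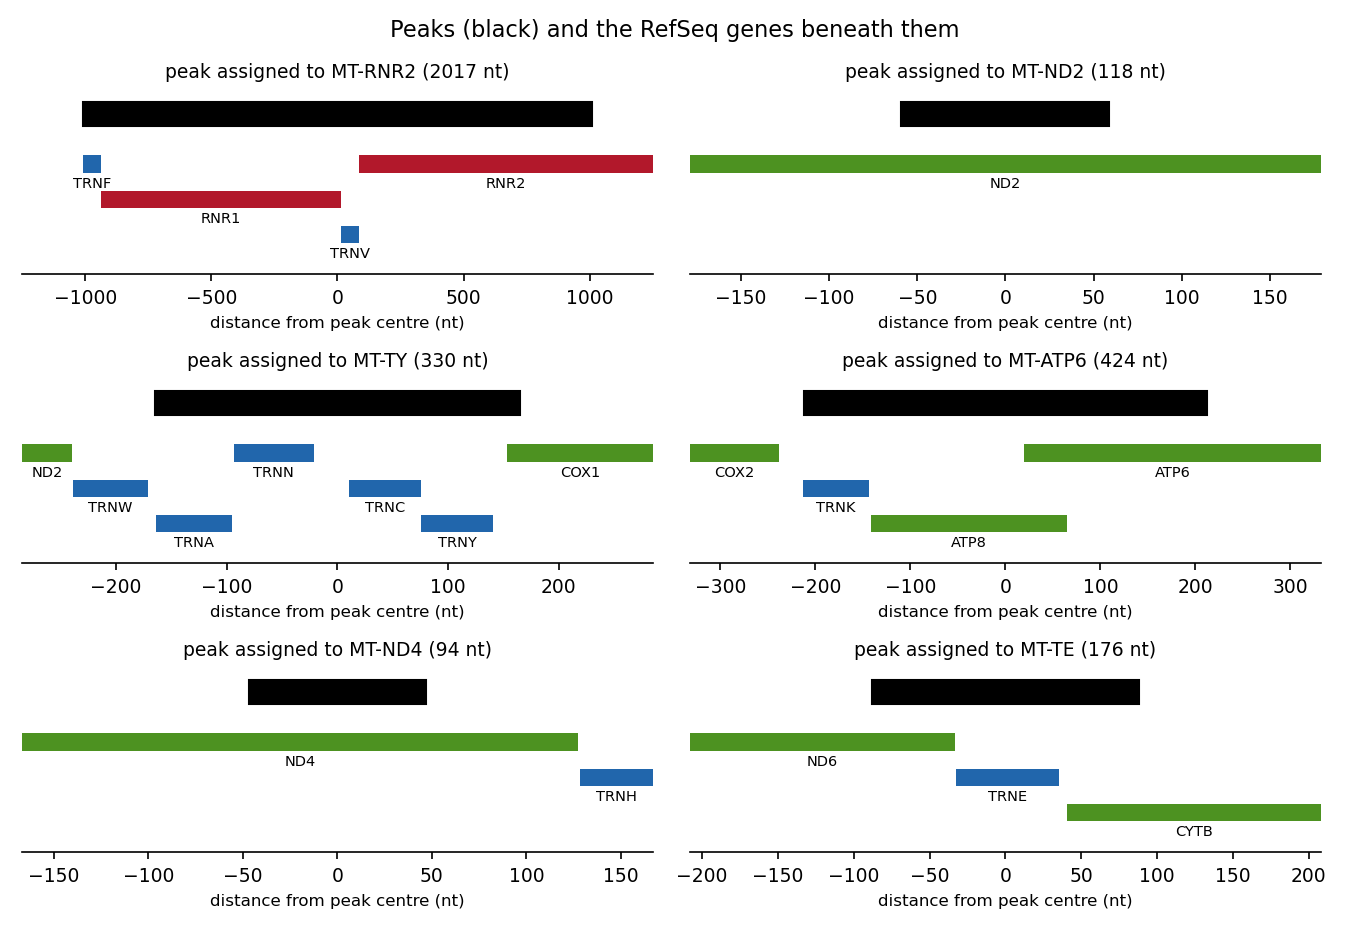
Each panel shows 1 of the 6 mitochondrial peaks as a black bar, with RefSeq genes beneath it (red rRNA, blue tRNA, green protein coding), against the distance from the peak centre in nt; genes are cut at the panel's edge. The peaks assigned to MT-RNR2, MT-TY and MT-ATP6 start within 1 nt of the left border of a tRNA gene. Those of MT-ND2 and MT-ND4 lie inside a single gene.

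Of the 37 mitochondrial genes, 17 were overlapped by a peak by at least 1 nt, against 10.5% of 58966 nuclear genes. tRNA genes were mostly covered whole or not at all. They are 59 to 75 nt long, shorter than each of the 4 peaks over them (176 to 2017 nt), and length was not accounted for. Of 22 tRNA genes 8 were overlapped (36.4%, against 18.9% of 429 nuclear tRNA genes), 6 of them over their whole length and the other two, TRNF and TRNK, but for 1 nt. Genes in 1 peak share that peak and are not separate observations, and the members were chosen for holding peaks, so this share is a description.

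Of 13 protein-coding genes 7 were overlapped (53.8%, against 23.8% of nuclear protein-coding genes by the same measure), but only ATP8 over its whole length. Next came ATP6 with 28.3% of its length, ND2 with 11.3%, ND6 with 10.5%, ND4 with 6.82%, CYTB with 4.21% and COX1 with 0.778%. ND2, ATP6 and ND4 were chosen for holding peaks. ND6, CYTB and COX1 were reached only by the edges of peaks that also held tRNA genes. The share of overlapped protein-coding genes is therefore a description as well. No peak touched ND1, COX2, COX3, ND3, ND4L or ND5. Among the genes without a peak were also 14 tRNA genes, and the longest of all, ND5 (1812 nt), was among these uncovered genes.

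**Figure D2:**
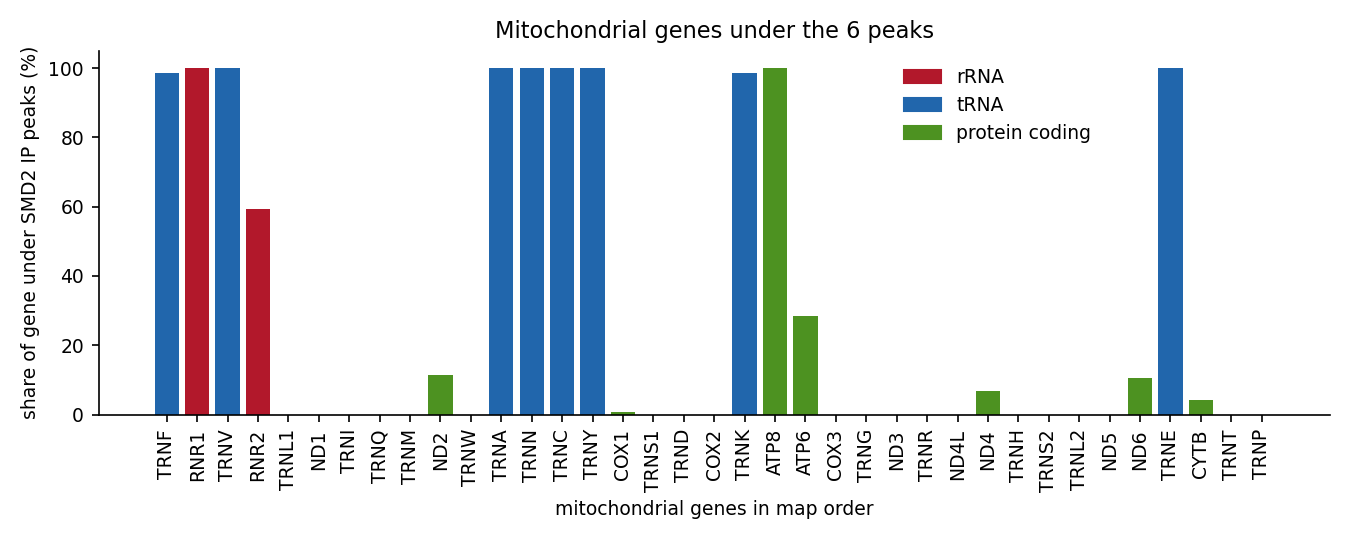
Share of each of the 37 mitochondrial genes, in map order from left to right, that lies under a peak, in percent of the gene's length (bars; red rRNA, blue tRNA, green protein coding). The 8 tRNA genes with a peak are covered to at least 98.6%, while ATP8 is the single protein-coding gene covered whole. All tRNA genes are shorter than any protein-coding gene.

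In bases, rRNA genes held 59.4% of the 3159 nt under mitochondrial peaks, protein-coding genes 21.6% and tRNA genes 17.4%. Set against the length of each class, 74.7% of rRNA sequence was under a peak, 36.5% of tRNA sequence and 6.38% of protein-coding sequence. Without the widest peak 1142 nt remained, none of it on rRNA.

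Some peaks began at gene borders. The starts of 3 of the 6 mitochondrial peaks lay within 1 nt of the left border of a tRNA gene (TRNF, TRNA and TRNK). TRNA is read from the strand opposite to COX1, so its left border is the end of the gene. Of the ends of the 6 peaks, 0 lay within 5 nt of a gene border. The nearest, the end of the MT-TY peak, lay 11 nt past the start of COX1. The other ends lay 47 to 635 nt from the nearest border. Across the list 0.681% of peak starts and 0.840% of peak ends lay within 1 nt of the start or end of a RefSeq gene. Genes abut each other on mitochondrial DNA and lie far apart on nuclear chromosomes, so the shares are not of like kind. The remaining starts, those of MT-ND2, MT-ND4 and MT-TE, lay 455, 174 and 54 nt from the nearest gene border.

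The mitochondrial peaks were wide. Their widths were 94, 118, 176, 330, 424 and 2017 nt, with a median of 253 nt, against 23 nt for the 9387 peaks that are neither mitochondrial nor of ENSG00000230021. All 6 were at least 50 nt wide, against 4.99% of the list, and all stood among the 100 widest peaks. With 0.0638% of the peaks they held 1.19% of the bases. Such widths were not confined to mitochondrial DNA. The widest of the 9387 other peaks had 1908 nt, and the mitochondrial peak of 424 nt ranked 6 by width. The 8 chromosome 1 peaks had widths of 4, 5, 10, 42, 58, 93, 112 and 200 nt (median 50 nt). They thus included 4 of at least 50 nt and 3 of at most 10 nt, a width found in 2.67% of the list.

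**Figure D3:**
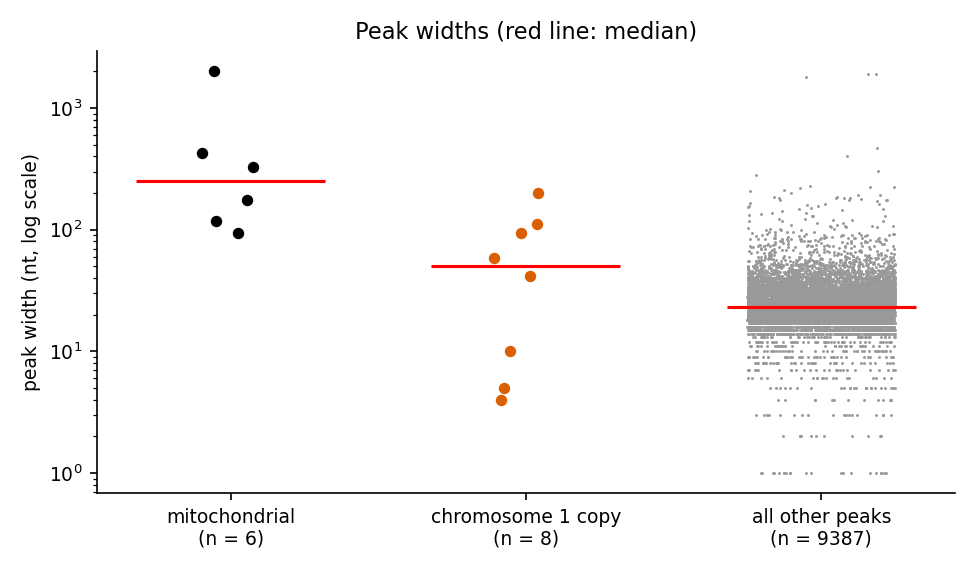
Width of each peak in nt on a log scale, for the 6 mitochondrial peaks, the 8 peaks of the chromosome 1 copy and the 9387 other peaks (points; sideways scatter has no meaning; red lines are medians). All mitochondrial peaks lie above the median of the others, and the chromosome 1 peaks spread from 4 to 200 nt on both sides of it.

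Mitochondrial DNA was also dense in peaks for its length. Between its first and last gene (577 to 16023, 15447 nt) 20.5% of bases were under a peak. The corresponding share was 0.0228% or less on each of the 24 nuclear chromosomes. The widest peak alone held 63.85% of the covered mitochondrial bases. There were 388 peaks per Mb (0.388 per kb) on mitochondrial DNA, against a median of 3.07 peaks per Mb over the nuclear chromosomes. The nuclear figures take whole chromosomes, genes or not, and the difference was not tested.

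The authors labelled all 6 mitochondrial peaks as promoter, a class that holds 11.6% of the list. The centres of these peaks lay 10.5 to 396.5 nt from the nearest gene border, be it a start or an end. For MT-ND2 and MT-ND4 it was the end of the gene. Distances to transcript starts were not measured. On chromosome 1, the 4 peaks labelled promoter had centres 2 to 73 nt from the border of a mitochondrial copy or of MIR12136. The 4 labelled exon had centres 271.5 to 688.5 nt from one. On mitochondrial DNA, where genes abut, the label thus sat on peaks in rRNA, tRNA and coding sequence alike.

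All 8 peaks of ENSG00000230021 were annotated to 1 transcript and lay in a stretch of chromosome 1 made of copies of mitochondrial genes. RefSeq places 7 pseudogenes there between 629062 and 634922 (5861 nt), in the mitochondrial order: MTND1P23, MTND2P28, MTCO1P12, MTCO2P12, MTATP8P1, MTATP6P1 and MTCO3P12. The start of 6 of them, all but MTND1P23, minus the start of its mitochondrial source was 625169, 625170 or 625171 nt. The stretch therefore keeps the spacing of the mitochondrial genes nearly base for base. MTND1P23, 379 nt long, lacks most of ND1 (956 nt).

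The stretch held no peak of any other gene, and no other peak lay within 100000 nt of it on either side. The nearest ones were at WASH9P, 443837 nt before it, and at ENSG00000272512, 361669 nt after it. Chromosome 1 as a whole held 4.25 peaks per Mb, so empty flanks of 100000 nt do not set the stretch apart. Within it the density was 1.36 peaks per kb, against 0.388 on mitochondrial DNA, and 8.94% of its bases were covered, against 20.5% there. The stretch was chosen for holding these peaks, so its density is a description.

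Of the 8 peaks 7 overlapped a named copy. MTND2P28, the copy of ND2, held 4: at 629636 to 629640, 629641 to 629698, 630096 to 630105 and 630226 to 630337. The first of these shared only 1 base with it, ended on its first base and was followed by the next peak with no base between them. MTCO1P12, the copy of COX1, held 1 peak (631742 to 631783). MTATP8P1 held 1 (633562 to 633654), over 44.9% of its length, and MTATP6P1 held 1 (633913 to 634112, 200 nt), the widest on the stretch. The copies of ND1, COX2 and COX3 held none, and their mitochondrial sources held none either. The remaining peak, at 632699 to 632702, lay between MIR12136 and MTCO2P12.

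The positions on chromosome 1 were then set beside those on mitochondrial DNA by subtracting the offset of the start of the nearest copy. This places genes against genes and is not a sequence alignment. The peak at 630226 to 630337 came to 5056 to 5167. By this offset, 625170 nt at the start of MTND2P28, it began at the same base as the mitochondrial peak of MT-ND2 and ended 6 nt before it. At the end of MTND2P28 the offset is 625175 nt. The match to the base therefore holds only for the offset of the start. The peak on MTATP8P1 came to 8393 to 8485, wholly inside the mitochondrial peak assigned to MT-ATP6. The peak on MTATP6P1 came to 8744 to 8943, beyond the end of that mitochondrial peak by a gap of 24 nt. Side by side, the chromosome 1 and mitochondrial peaks thus covered different parts of ATP6.

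The other 5 chromosome 1 peaks met no mitochondrial peak. They came to 4466 to 4470 and 4471 to 4528, at the end of the methionine tRNA gene TRNM and the start of ND2, to 4926 to 4935 in ND2, to 6572 to 6613 in COX1 and to 7528 to 7531 in the aspartate tRNA gene TRND. In all, 2 of 8 chromosome 1 peaks, with 205 of their 524 bases, lay on a mitochondrial peak.

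In the other direction, 3 of the 6 mitochondrial peaks lay in the copied span (3892 to 9753 by the same offsets). Those of MT-ND2 and MT-ATP6 each had a chromosome 1 peak over them, on 94.9% and 21.9% of their bases. The 4 tRNA genes under the MT-TY peak had none, although the copies of ND2 and COX1 on either side start at the same offset. The peaks of MT-RNR2, MT-ND4 and MT-TE have no counterpart in the stretch.

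The offsets were also set against MIR12136. Moved by the offset of MTCO1P12, its hairpin came to 7445 to 7515 and contained all 69 nt of TRNS1, a serine tRNA gene (7446 to 7514). TRNS1 itself held no peak.

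**Figure D4:**
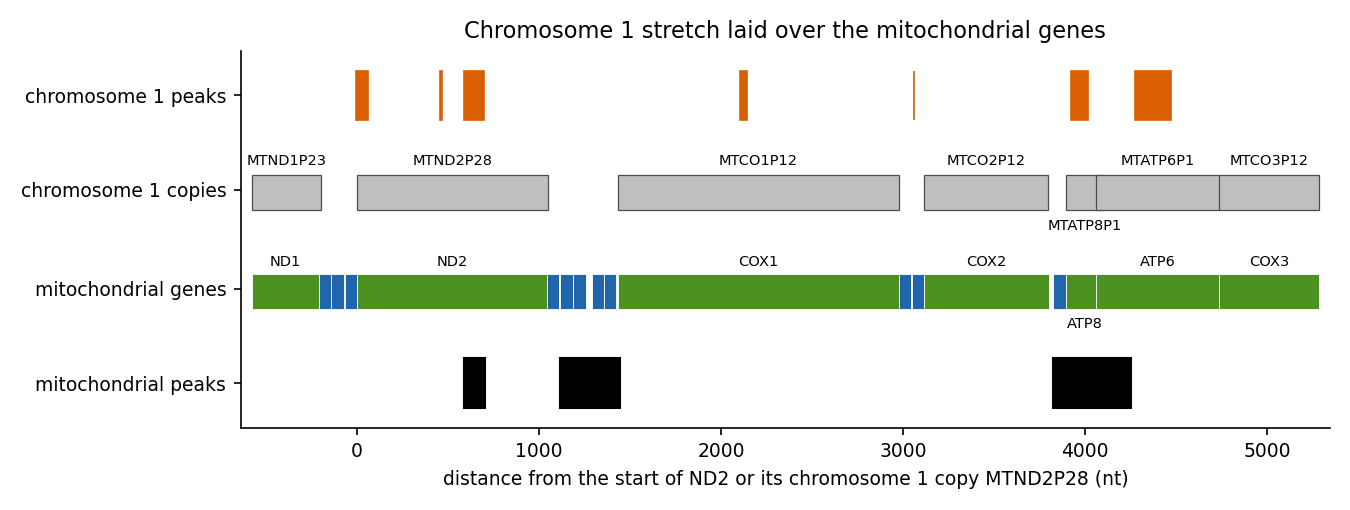
The chromosome 1 stretch laid over the mitochondrial genes it was copied from, against the distance in nt from the start of ND2 or of its copy MTND2P28. From top to bottom are the 8 chromosome 1 peaks (orange, outlined so that the narrow ones show; the first pair touch), the 7 RefSeq copies (grey), the mitochondrial genes (green protein coding, blue tRNA) and the 3 mitochondrial peaks in the span (black). By the offset of the start of MTND2P28, the orange peak over the black one in ND2 starts at the same base. The orange peak in ATP6 lies 24 nt beyond the end of the black one.

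Other nuclear copies of mitochondrial genes were counted by overlap with their RefSeq spans. Outside the chromosome 1 stretch, 6 of 466 copies named for a mitochondrial protein gene were overlapped (1.29%, Wilson 95% interval 0.591 to 2.78%), against 3.14% of all 16659 RefSeq pseudogenes. In the stretch it was 4 of 7. Intervals cover counting error only, copies in one stretch are not independent, and the stretch was chosen for its peaks.

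By the authors' own assignment, 15 peaks of the list carried the name of such a copy. Of these, 5 overlapped the copy they were named for, and 4 of the 15 were of the intergenic class.

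Of the 6 copies, 5 were on chromosome 5. MTCYBP18, MTND5P11 and MTND4LP30 lie in order between 134923303 and 134928326 and held 1 peak each, of 14, 39 and 4 nt. Elsewhere on chromosome 5, MTCO2P22 held a peak of 38 nt, and MTND6P3 shared 5 nt with a peak of 72 nt. The last was MTCO1P2 on chromosome 14, with a peak of 62 nt that the authors assigned to AKAP6. The mitochondrial genes ND5, ND4L and COX2 held no peak themselves, so some copies held a peak while their source gene held none. Positions within these copies were not set against those in their source genes.

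Copies of the large ribosomal RNA gene carry names of their own, MTRNR2L and a number. Of 13 such genes 3 were overlapped (23.1%, 8.18 to 50.3%), against 23.8% of nuclear protein-coding genes, 10.5% of all nuclear genes and 3.14% of pseudogenes. This group was looked at after the list was seen, and its share lies near that of protein-coding genes. MTRNR2L12 on chromosome 3 held a peak of 100 nt at 96617848 to 96617947, which the authors assigned to RPL18AP8. MTRNR2L1 on chromosome 17 held a peak of 33 nt, assigned to MTND1P15. MTRNR2L10 on chromosome X held 2 peaks of 14 nt, assigned to MTND1P30. None of these rows named the rRNA copy, so it would be missed in a search of the list by gene name. Beside MTRNR2L8 on chromosome 11, peaks of 40 and 27 nt assigned to MIR4485 began after 272 and 877 further bases.

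Nuclear genes that serve mitochondrial function were looked at beside them. Of 55 genes for mitochondrial transcription, RNA processing and translation 14 were assigned a peak outside the intergenic class (25.5%, Wilson 95% interval 15.8 to 38.3%), against 21.6% of 19866 protein-coding genes. LRPPRC, which stabilises mitochondrial mRNAs, had 6 peaks of 18 to 23 nt, 5 of them intronic. FASTK, of a family of mitochondrial RNA-binding proteins, and MTRF1L, a mitochondrial release factor, had 2 each. The RNA helicase gene DHX30, ELAC2, which codes for the nuclease that trims tRNA 3' ends, and FASTKD3 had 1 each. Of the mitochondrial pseudouridine synthase genes in the list, named after their values were seen, TRUB2 had 1 peak and RPUSD3, RPUSD4 and PUS1 had none.

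For nuclear genes of oxidative phosphorylation, subunits and assembly factors together, the count was 24 of 113 (21.2%, 14.7 to 29.7%). NDUFS1, of complex I, had 3 peaks. ATP5F1A of the ATP synthase, the assembly factors COX11 and COX20, and the complex I genes NDUFA1 and NDUFA12 had 2 each. Of 77 mitochondrial ribosomal protein genes, whose products bind the rRNAs of the widest peak, 21 had one (27.3%, 18.6 to 38.1%). MRPS27 and MRPS28 had 2 peaks each, and MRPL2, MRPL20, MRPL23 and MRPL33 had 1 each. The narrower peak of MRPS27 was only 2 nt wide. All 3 intervals contain the share of all protein-coding genes. The median gene had 0 peaks in each list and among all protein-coding genes.

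**Figure D5:**
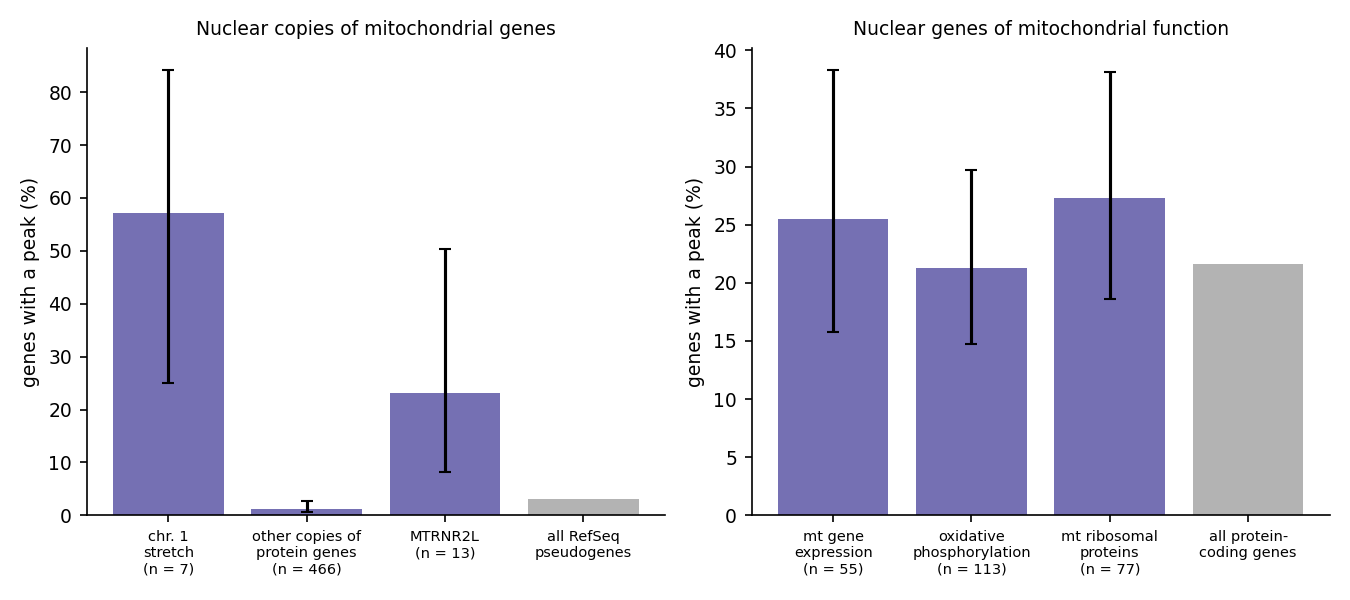
Share of genes with a peak, in percent, for groups of nuclear copies of mitochondrial genes (left) and of nuclear genes of mitochondrial function (right), in purple, each panel ending with its background in grey; lines are Wilson 95% intervals, which cover counting error only. The chromosome 1 stretch stands at 57.1% by choice, the other copies of protein genes at 1.29%, and the functional groups lie between 21.2% and 27.3%.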

How the data were processed

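Libraries were grouped by title into SMD2 immunoprecipitation (3) and input (1). The authors deposited 1 list of peak positions, named for the immunoprecipitation, with gene, transcript, gene type and class, and no library has a column of its own. The submitters' processing notes name Trim Galore 0.6.10, Bowtie2 2.5.1 and build hg38. Not given in the sources used here are how reads that fit several places were treated, which program called and which annotated the peaks, with what threshold, and whether libraries were pooled or the input was used. The depth is unknown.

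Listed starts were taken to count from 0 and are printed plus 1: 97 neighbouring pairs abut with no base between them and 0 share one. Genes came from the RefSeq table (GRCh38.p14), of which 789 of 59792 entries were left out. These had no listed position, or came after their chromosome's first run of entries in order of position (taken as scaffolds and patches). Overlap meant at least 1 nt. Copies were found by symbol (MT, a mitochondrial gene, P and a number, or MTRNR2L and a number). Nuclear lists were matched by symbol and chromosome, all 55 genes of mitochondrial expression among them. Named are all members, every gene or copy under a member peak, and per nuclear list the 6 genes with the most peaks (ties by symbol); copies elsewhere were named after their values were seen. The members and lists were chosen with earlier results of these data known. No test was run, since 1 list has no replicates. Wilson intervals are 95%. Interval functions were tested on simulated data. The software was matplotlib 3.10.9, scipy 1.17.1, pandas 2.3.3 and numpy 2.4.6 under Python 3.11.15.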

Additional observations from a re-analysis of the deposited data

How the results depend on the processing

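No paired analysis was possible because the list has no value per library. Of 17 values under an alternative, over 10 results, 11 stayed within 1.5 times the reported value. Without the widest peak, 1142 in place of 3159 mitochondrial bases were covered; with at least 50% of a gene covered as the criterion, 11 in place of 17 mitochondrial genes held a peak. With at least 2 peaks per gene, 3 in place of 14 genes of mitochondrial expression, 7 in place of 24 of oxidative phosphorylation and 2 in place of 21 of mitochondrial ribosomal proteins remained, as the construction of that criterion makes fewer genes pass. Leaving out the chromosome 1 stretch gave 6 in place of 10 nuclear copies. With peaks within 50 nt merged, ENSG00000230021 had 7 in place of 8 peaks. The number of its peaks that lay on a mitochondrial peak was 2 with each offset tried. Leaving out the stretch and the other offsets were alternatives chosen after seeing the data. Depth, the input and the strand limit every value, since the list holds none of them.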
